A study of Homo sapiens with 12 samples.

Results

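The genes described here are NFE2L2, which encodes the transcription factor NRF2, its inhibitor KEAP1, and the antioxidant and detoxifying enzymes and pumps that are commonly listed as NRF2 targets or as their partners. They were chosen by name, as a list of 36 symbols, with earlier results of these data known. Of these, 30 had a probe detected on at least 2 of 12 arrays (detection p under 0.01). AKR1B10, AKR1C1 and GPX2 had a named probe but no array on which it was detected, and OSGIN1, AKR1B1 and ABCC1 were not analysed here. The 30 measured genes had 40 detected probes, and they belong to 10330 genes tested in all.

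The cells were A375, an established human melanoma line that carries an activated BRAF kinase. They were exposed to ciclopirox, an antifungal hydroxypyridone that chelates iron, or to crizotinib, an inhibitor of the MET, ALK and ROS1 receptor kinases, each at the concentration that inhibited by 75% at 72 h, and were harvested after 8 h or 24 h. The vehicle was DMSO, and total RNA was read on Illumina bead arrays. There were 2 control arrays, whose titles give no time, 3 arrays each at 8 h and 2 arrays each at 24 h of either drug. The control arrays serve both times, so the 4 comparisons with control share them. All cells were one line in culture, the titles do not say that replicates were separate cultures, and the p-values thus reflect array-to-array spread alone, possibly technical.

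NRF2 is made continuously and destroyed continuously: KEAP1 holds it for a CUL3 ubiquitin ligase, and oxidants or electrophiles that modify KEAP1 cysteines let NRF2 reach the nucleus. There it pairs with small MAF proteins and binds antioxidant response elements in front of genes for glutathione and thioredoxin metabolism, NADPH supply, quinone and carbonyl reduction, and export of conjugates. NRF2 itself is regulated mainly as a protein, and the arrays measured only mRNA. HMOX1 is also held down by the repressor BACH1.

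Values are the authors' normalized intensities, compared as log2 differences in a limma fit over all 12 arrays, and a call is a Benjamini-Hochberg adjusted p under 0.05 over all 10330 genes. Intensities of different probes cannot be set against each other. The probe used for each of the 30 genes was above background on every array, the threshold being 40.3, the 99th percentile of probes that no array detected. In these cells the melanocyte genes MLANA, TYR, TYRP1 and S100B were above background on none of the 12 arrays, PMEL on 1, MITF on 9 (34.1 to 63.5) and SOX10 on all (2211 to 3828). Of 6 markers of dedifferentiated melanoma, 5 were above it on all arrays, among them AXL (5519 to 8192), and NGFR on none (21.5 to 33.1). Of the markers of other cell types, none of the 3 measured keratinocyte genes was above background on any array, PTPRC and CD3E of leukocytes were above it on none and CD14 on 4 (24.7 to 53.3). Of 5 fibroblast genes, LUM was above it on all arrays (41.8 to 93.4), COL1A1 on 1 and the other 3 on none. Sample names conflict between the authors' normalized table and their scanner table, in which only the 2 control arrays follow the column given in their descriptions. The conflict crosses the drugs. Crizotinib 24 h replicates 1 and 2 followed the scanner columns described as ciclopirox 8 h replicates 1 and 2 (r = 0.976 and 0.980). Ciclopirox 8 h replicates 2 and 3 followed those described as crizotinib 24 h replicates 1 and 2. Under the descriptions, values given here for 24 h of crizotinib would thus be labelled 8 h of ciclopirox. The normalized table's names are used throughout. Under them 12 of 12 arrays were closest to one of their own group, against 7 of 12 with scanner signals under the descriptions. The table differs along with the names, and closeness within groups cannot show that a group carries the right drug or time. With scanner signals under the descriptions' names, which changes both the table and the names, 41 of the 79 calls changed sign, 37 kept their sign and did not pass, and 1 passed in the same direction.

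The DNA in front of 4 of these genes is shown. GCLM and NQO1 fell at 24 h of ciclopirox, and TXNRD1 rose at 8 h of both drugs. SRXN1 rose at 8 h of ciclopirox and fell at 24 h of crizotinib. HMOX1 was planned with them, but no window was at hand for it. Each window runs from 250 bases before to 50 bases after the annotated start, in the gene's own direction, from RefSeq on GRCh38.p14. Capitals mark matches, on either strand, to TGACNNNGC or TGAGNNNGC, the letters of the antioxidant response element.
GCLM (chr1:93909381-93909680, minus strand): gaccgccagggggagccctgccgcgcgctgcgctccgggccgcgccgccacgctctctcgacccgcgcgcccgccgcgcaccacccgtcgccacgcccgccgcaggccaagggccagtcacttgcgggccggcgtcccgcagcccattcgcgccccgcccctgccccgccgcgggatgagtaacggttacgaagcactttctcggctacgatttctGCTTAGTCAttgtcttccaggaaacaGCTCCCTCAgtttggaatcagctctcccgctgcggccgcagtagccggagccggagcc
TXNRD1 (chr12:104215529-104215828, plus strand): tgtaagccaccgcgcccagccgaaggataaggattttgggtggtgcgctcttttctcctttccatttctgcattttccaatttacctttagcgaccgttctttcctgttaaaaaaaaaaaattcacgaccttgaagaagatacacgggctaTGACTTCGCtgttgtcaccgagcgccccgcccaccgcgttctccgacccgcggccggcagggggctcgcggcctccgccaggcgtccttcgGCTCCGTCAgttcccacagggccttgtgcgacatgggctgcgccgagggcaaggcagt
NQO1 (chr16:69726511-69726810, minus strand): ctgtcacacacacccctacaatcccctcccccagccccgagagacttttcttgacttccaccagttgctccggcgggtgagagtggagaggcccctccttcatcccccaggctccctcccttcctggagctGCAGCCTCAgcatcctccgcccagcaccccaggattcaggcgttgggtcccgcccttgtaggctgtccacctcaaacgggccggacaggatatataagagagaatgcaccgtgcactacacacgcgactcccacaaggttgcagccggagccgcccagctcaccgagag
SRXN1 (chr20:653151-653450, minus strand): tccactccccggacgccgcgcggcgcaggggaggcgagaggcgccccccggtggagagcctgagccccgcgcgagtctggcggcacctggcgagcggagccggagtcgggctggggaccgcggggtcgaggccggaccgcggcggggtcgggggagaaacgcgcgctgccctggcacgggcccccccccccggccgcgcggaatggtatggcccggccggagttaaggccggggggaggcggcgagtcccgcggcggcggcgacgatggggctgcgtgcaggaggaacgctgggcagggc

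The GCLM window holds TGACTAAGC and TGAGGGAGC and the TXNRD1 window TGACTTCGC and TGACGGAGC, in each case with the second match ending on the start base. The NQO1 window holds TGAGGCTGC, 119 to 111 bases before the start, and the SRXN1 window holds no match. A window was at hand for 28 of the 36 genes, including some that were not measured. Of these 28, 14 (50.0%) hold at least 1 match on either strand, against 29.4% of all 27305 windows in the same table. Among the 24 measured genes with a window, 11 (45.8%) hold a match. TGACNNNGC alone occurs in 25.0% of the 28 and 13.6% of all windows, and TGAGNNNGC in 32.1% and 18.4%. The matches describe letters, and no binding was measured. DNA outside the windows was not searched.

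The response of these genes was mixed in direction under both drugs. The largest number, 14 of the 30, was called at 24 h of crizotinib, where the share of all genes called was also the highest. At 8 h of ciclopirox 6 of the 30 genes were called, 3 higher and 3 lower, where 11.1% of all genes were called, 4.39% higher and 6.75% lower. At 24 h of ciclopirox 7 were called, 1 higher and 6 lower, against 10.6% of all genes, 5.68% higher and 4.94% lower. At 8 h of crizotinib 6 were called, 4 higher and 2 lower, against 9.80%, 4.45% higher and 5.34% lower. At 24 h of crizotinib 14 were called, 10 higher and 4 lower, against 31.0%, 15.5% higher and 15.5% lower.

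The median log2 change was -0.07 over the 30 genes and -0.02 over all genes at 8 h of ciclopirox, and -0.04 over the 30 genes and -0.00034 over all genes at 24 h. It was 0.01 over the 30 genes and -0.03 over all genes at 8 h of crizotinib, and 0.03 over the 30 genes and 0.01 over all genes at 24 h. The medians over the 30 genes stood close to those over all genes, and the calls lay with single genes. Among the 30, 12 were called in none of the 4 comparisons with control, 8 in 1, 6 in 2, 3 in 3 and 1, AKR1C2, in all 4. SRXN1, AKR1C3 and PIR were called higher in at least 1 comparison and lower in at least 1 other. These counts per gene were not made over all genes, and the 4 comparisons share the same control arrays.

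The direction counts were different with scanner signals scaled to a common median, which replaces both the table and its normalization. The calls were then 1 higher and 7 lower at 8 h of ciclopirox, 0 and 6 at 24 h, 3 and 4 at 8 h of crizotinib, and 4 and 7 at 24 h. The median change of all genes was -0.15, -0.05, -0.16 and -0.18 in the same order with those signals. None of the 79 called gene changes reversed with them, and 27 did not pass.

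**Figure D1:**
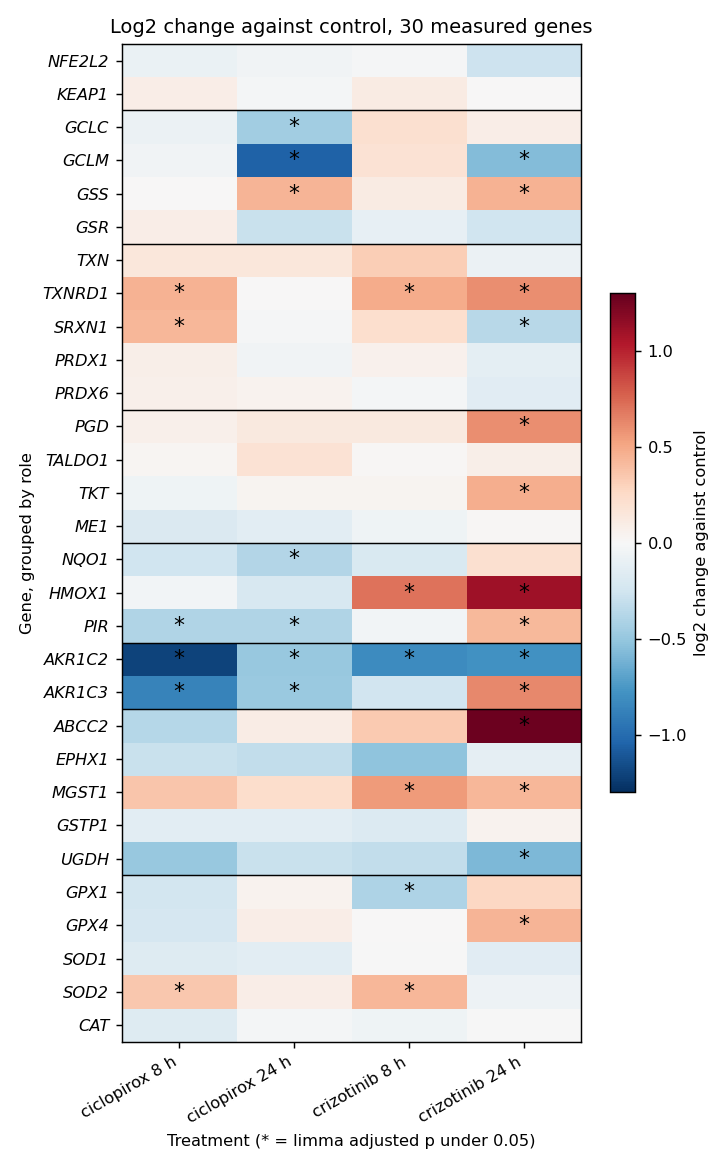
Log2 change against control (colour) of the 30 measured genes (rows, grouped by role) at 8 h and 24 h of ciclopirox and crizotinib (columns), with an asterisk where limma called the change. The asterisks number 6, 7, 6 and 14 from left to right, and only AKR1C2 carries one in every column.

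The regulators themselves were not called in any of the 9 comparisons made. NFE2L2 intensity was 765 and 637 in the control arrays, 699, 586 and 694 at 8 h and 667 and 684 at 24 h of ciclopirox, and 688, 703 and 679.9 at 8 h and 523 and 642 at 24 h of crizotinib. The lowest array was one of 24 h of crizotinib, whose other array lay within the control range, and the log2 difference from control was -0.27 ± 0.13 (adjusted p = 0.147). KEAP1 lay between 742 and 899.7 over all arrays, with log2 differences from control of 0.08 and -0.03 at 8 h and 24 h of ciclopirox and 0.10 and 0.01 at 8 h and 24 h of crizotinib. The 95% interval at 24 h of crizotinib ran from -0.23 to 0.24 for KEAP1 and from -0.56 to 0.02 for NFE2L2, so the arrays bound these differences without showing that there was none.

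HMOX1, which opens haem and releases its iron, had the largest log2 difference of the 30 genes between the drugs at both times: it rose with crizotinib at both times and was not called with ciclopirox. HMOX1 intensity was 67.7 and 73.4 in the control arrays, 74.2, 69.3 and 63.4 at 8 h and 67.1 and 55.3 at 24 h of ciclopirox, and 106, 122 and 118 at 8 h and 157 and 145 at 24 h of crizotinib. Every crizotinib array was above every control and every ciclopirox array, and the 24 h crizotinib arrays were the highest. With crizotinib HMOX1 rose by 0.71 ± 0.11 (adjusted p = 0.00583) on the log2 scale at 8 h, and by 1.10 ± 0.12 (adjusted p = 0.000119) or 2.14-fold at 24 h. With ciclopirox the difference from control was -0.03 ± 0.11 (adjusted p = 0.874) at 8 h and -0.21 ± 0.12 (adjusted p = 0.302) at 24 h. The HMOX1 call did not pass at 8 h of crizotinib without control replicate 1 (0.65).

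NQO1, which reduces quinones by a pair of electrons at once, fell at 24 h of ciclopirox and was not called against control with crizotinib. Its intensity was 5827 and 5643 in the control arrays, 4797, 4771 and 4821 at 8 h and 4538 and 4263 at 24 h of ciclopirox, and 4972, 5035 and 4969 at 8 h and 6942 and 6356 at 24 h of crizotinib. All ciclopirox arrays and all 8 h crizotinib arrays lay below the controls, whereas both 24 h crizotinib arrays lay above them. The change was -0.38 ± 0.08 (adjusted p = 0.0184) at 24 h of ciclopirox and -0.26 ± 0.08 (adjusted p = 0.0525) at 8 h, and -0.20 ± 0.08 (adjusted p = 0.115) and 0.21 ± 0.08 (adjusted p = 0.0755) at 8 h and 24 h of crizotinib. From 8 h to 24 h of crizotinib NQO1 rose by 0.41 ± 0.08 (adjusted p = 0.00171). The NQO1 call did not pass at 24 h of ciclopirox without control replicate 1 (-0.36), control replicate 2 (-0.41) or ciclopirox 24 h replicate 2 (-0.34).

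PIR, an iron-binding nuclear protein, moved in opposite directions with the 2 drugs. PIR intensity was 1833 and 1784 in the control arrays, 1416, 1282 and 1447 at 8 h and 1365 and 1401 at 24 h of ciclopirox, and 1774, 1754 and 1778 at 8 h and 2294 and 2565 at 24 h of crizotinib. The 5 ciclopirox arrays were below both controls, the 8 h crizotinib arrays lay just below them and the 24 h crizotinib arrays above. PIR fell with ciclopirox by 0.39 ± 0.08 (adjusted p = 0.0175) at 8 h and 0.39 ± 0.09 (adjusted p = 0.0277) at 24 h on the log2 scale, and rose by 0.42 ± 0.09 (adjusted p = 0.00606) at 24 h of crizotinib. A second PIR probe gave the same direction at 24 h of crizotinib, 0.84 ± 0.10 (adjusted p = 0.000191), and was not called at 8 h or 24 h of ciclopirox (-0.15 and -0.05), so the fall rests on 1 probe. The PIR call did not pass at 8 h of ciclopirox without control replicate 1 (-0.37), control replicate 2 (-0.41) or ciclopirox 8 h replicate 2 (-0.34), nor at 24 h of ciclopirox whichever array was left out (-0.41 to -0.37), nor at 24 h of crizotinib without crizotinib 24 h replicate 2 (0.34). With median-scaled scanner signals the call did not pass for PIR at 24 h of crizotinib (0.13).

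**Figure D2:**
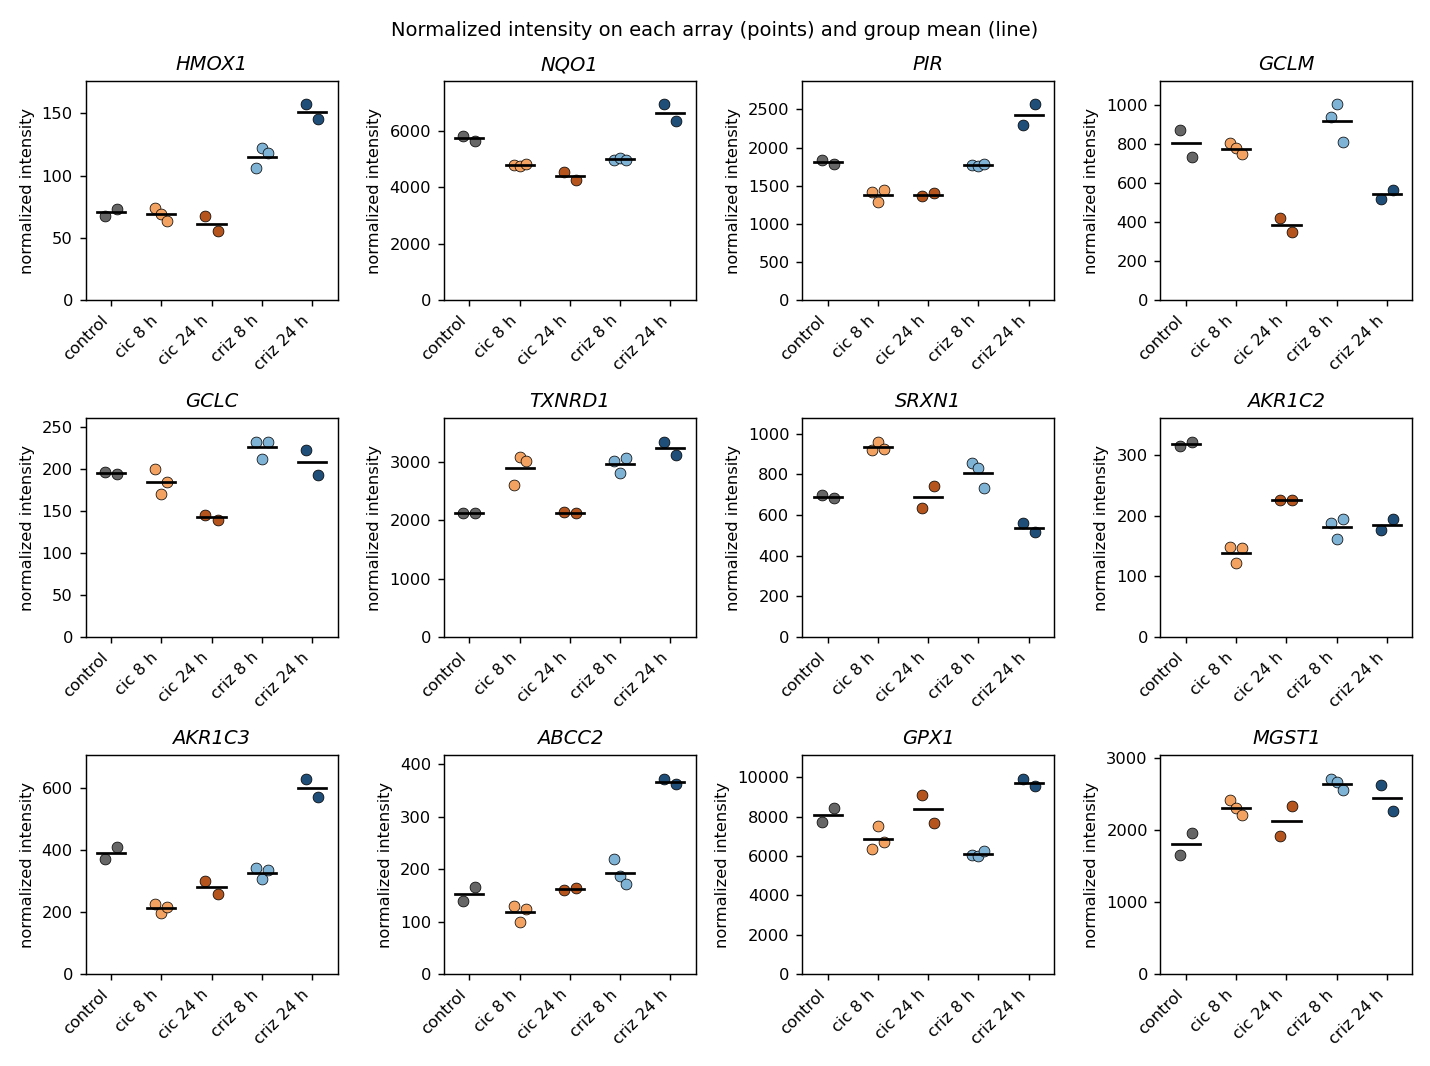
Normalized intensity (vertical axis, linear, from 0, a separate scale in each panel) of 12 genes on each array (points) with the group mean (line), for control, ciclopirox 8 h and 24 h, and crizotinib 8 h and 24 h. HMOX1 and ABCC2 are highest at 24 h of crizotinib, GCLM is lowest at 24 h of ciclopirox, and AKR1C2 is below control in all 4 treated groups.

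Among the enzymes that make and recycle glutathione, the 2 subunits of glutamate-cysteine ligase, which catalyses the rate-limiting step, and glutathione synthetase, which catalyses the next one, went opposite ways at 24 h of ciclopirox, where 3 of the 4 measured genes were called. GCLM, the modifier subunit, had an intensity of 873 and 733 in the control arrays, 805, 777 and 746 at 8 h and 423 and 350.3 at 24 h of ciclopirox, and 939.5, 1002 and 811 at 8 h and 519 and 565 at 24 h of crizotinib. Both 24 h groups lay below every control and every 8 h array, and the ciclopirox arrays were the lowest. GCLM fell by 1.06 ± 0.13 (adjusted p = 0.00149) on the log2 scale at 24 h of ciclopirox, or 2.08-fold, and by 0.56 ± 0.13 (adjusted p = 0.0095) at 24 h of crizotinib. It was not called at 8 h of either drug, with differences from control of -0.04 ± 0.12 (adjusted p = 0.851) and 0.19 ± 0.12 (adjusted p = 0.341). The GCLM call did not pass at 24 h of crizotinib without control replicate 1 (-0.44) or crizotinib 24 h replicate 1 (-0.50).

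GCLC, the catalytic subunit, had an intensity of 197 and 195 in the control arrays, 200.3, 170.4 and 185 at 8 h and 145 and 140.1 at 24 h of ciclopirox, and 233, 213 and 233 at 8 h and 223 and 194 at 24 h of crizotinib. The 24 h ciclopirox arrays lay below all others. It fell by 0.46 ± 0.11 (adjusted p = 0.0255) there and at 24 h of crizotinib it was not called, at 0.09 ± 0.11 (adjusted p = 0.572). GSS, glutathione synthetase, read 709 and 702 in the control arrays, 657, 716 and 749 at 8 h and 965 and 957 at 24 h of ciclopirox, and 740.4, 748 and 792 at 8 h and 928 and 998 at 24 h of crizotinib. The 4 arrays at 24 h, of both drugs, lay above every other array. GSS rose by 0.45 ± 0.09 (adjusted p = 0.0149) with ciclopirox and 0.45 ± 0.09 (adjusted p = 0.00426) with crizotinib at 24 h. GSR, which reduces oxidised glutathione, was not called against control in any comparison, and read 423 and 389.8 in control, 314 and 354 at 24 h of ciclopirox and 315 and 365 at 24 h of crizotinib. The GCLC call did not pass at 24 h of ciclopirox whichever array was left out (-0.48 to -0.43). The GSS call did not pass at 24 h of ciclopirox whichever array was left out (0.44 to 0.45). Scanner signals scaled to a common median gave no call for GSS at 24 h of ciclopirox (0.38) and GSS at 24 h of crizotinib (0.19).

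In the thioredoxin system the reductase rose early under both drugs. TXNRD1, the cytosolic thioredoxin reductase, read 2116 and 2118 in the control arrays, 2606, 3078 and 3004 at 8 h and 2134 and 2119 at 24 h of ciclopirox, and 3005, 2801 and 3067 at 8 h and 3341 and 3112 at 24 h of crizotinib. The 8 h arrays of both drugs and the 24 h crizotinib arrays lay above all controls, and the 24 h ciclopirox arrays were back beside them. TXNRD1 rose by 0.45 ± 0.09 (adjusted p = 0.0141) at 8 h of ciclopirox, by 0.48 ± 0.09 (adjusted p = 0.0127) at 8 h of crizotinib and by 0.61 ± 0.10 (adjusted p = 0.00134) at 24 h of crizotinib, and at 24 h of ciclopirox the difference was 0.01 ± 0.10 (adjusted p = 0.979). A second TXNRD1 probe was called higher in the same 3 comparisons. The TXNRD1 call did not pass at 8 h of ciclopirox without control replicate 1 (0.45) or control replicate 2 (0.45), nor at 8 h of crizotinib without control replicate 1 (0.48) or control replicate 2 (0.48).

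SRXN1, sulfiredoxin, which repairs over-oxidised peroxiredoxins, had an intensity of 699 and 682 in the control arrays, 919, 961 and 924 at 8 h and 633 and 742 at 24 h of ciclopirox, and 858, 829 and 735 at 8 h and 558 and 515 at 24 h of crizotinib. It was highest at 8 h of ciclopirox and lowest at 24 h of crizotinib, and neither group overlapped with control. SRXN1 rose by 0.44 ± 0.10 (adjusted p = 0.02) at 8 h of ciclopirox and fell by 0.37 ± 0.11 (adjusted p = 0.0256) at 24 h of crizotinib. TXN, thioredoxin itself, ranged from 10329.9 to 15282 and was not called against control, its largest difference being 0.32 ± 0.12 (adjusted p = 0.115) at 8 h of crizotinib. PRDX1, a peroxiredoxin, ranged from 14958 to 18394 and PRDX6 from 5991 to 7143, and neither was called in any comparison with control. The SRXN1 call did not pass at 8 h of ciclopirox without control replicate 1 (0.45), control replicate 2 (0.42) or ciclopirox 8 h replicate 2 (0.42), nor at 24 h of crizotinib whichever array was left out (-0.42 to -0.31). In the median-scaled scanner signals no call was made for SRXN1 at 8 h of ciclopirox (0.32).

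Of the 4 genes grouped here under NADPH supply, PGD and TKT of the pentose phosphate pathway rose at 24 h of crizotinib. The grouping is by pathway, and not each of these enzymes makes NADPH itself. PGD intensity was 1558 and 1362 in the control arrays, 1429, 1565 and 1599 at 8 h and 1631 and 1558 at 24 h of ciclopirox, and 1361, 1674 and 1758 at 8 h and 2038 and 2398 at 24 h of crizotinib, and the 2 highest arrays were those of 24 h of crizotinib. TKT intensity was 9938 and 10082 in control and 13114 and 14635 at 24 h of crizotinib, and the other arrays lay between 8802 and 10740.1. The changes were 0.60 ± 0.14 (adjusted p = 0.00763) for PGD and 0.47 ± 0.11 (adjusted p = 0.00761) for TKT. TALDO1, transaldolase, and ME1, malic enzyme, were not called in any comparison with control, at 0.08 ± 0.10 (adjusted p = 0.565) and 0.01 ± 0.11 (adjusted p = 0.937) for 24 h of crizotinib. The PGD call did not pass at 24 h of crizotinib without control replicate 2 (0.50) or crizotinib 24 h replicate 2 (0.48). The TKT call did not pass at 24 h of crizotinib without crizotinib 24 h replicate 2 (0.39). On median-scaled scanner signals no call was made for PGD at 24 h of crizotinib (0.37) and TKT at 24 h of crizotinib (0.28).

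Both measured aldo-keto reductases of the AKR1C group, which reduce steroids, prostaglandins and reactive carbonyls, fell at both times of ciclopirox. AKR1C2 intensity was 316 and 322 in the control arrays, 149, 123 and 147 at 8 h and 227 and 226 at 24 h of ciclopirox, and 189, 162 and 194 at 8 h and 177 and 194 at 24 h of crizotinib. All 10 treated arrays lay below both controls, and the lowest were those of 8 h of ciclopirox. AKR1C2 fell by 1.20 ± 0.11 (adjusted p = 0.000375) at 8 h of ciclopirox, or 2.30-fold, by 0.50 ± 0.12 (adjusted p = 0.0306) at 24 h, and by 0.82 ± 0.11 (adjusted p = 0.0029) and 0.78 ± 0.12 (adjusted p = 0.000909) at 8 h and 24 h of crizotinib. The AKR1C2 call did not pass at 24 h of ciclopirox whichever array was left out (-0.51 to -0.48).

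AKR1C3 intensity was 370.0 and 408 in the control arrays, 227, 196 and 215 at 8 h and 301 and 257 at 24 h of ciclopirox, and 341, 305 and 335 at 8 h and 629 and 570.4 at 24 h of crizotinib. It lay below the controls at both times of ciclopirox and at 8 h of crizotinib, and above them at 24 h of crizotinib. AKR1C3 fell by 0.87 ± 0.11 (adjusted p = 0.00128) and 0.48 ± 0.12 (adjusted p = 0.0293) at 8 h and 24 h of ciclopirox, at 8 h of crizotinib was not called, at -0.25 ± 0.11 (adjusted p = 0.159), and rose by 0.62 ± 0.12 (adjusted p = 0.00265) at 24 h. AKR1C1, AKR1C2 and AKR1C3 are near copies of each other, and how far a probe of one also reads the others was not tested. The AKR1C3 call did not pass at 24 h of ciclopirox without control replicate 1 (-0.55), control replicate 2 (-0.41) or ciclopirox 24 h replicate 2 (-0.37).

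ABCC2, a pump that exports glutathione conjugates and drugs, rose at 24 h of crizotinib. ABCC2 intensity was 139.8 and 165 in the control arrays, 130.3, 99.4 and 124 at 8 h and 161 and 165 at 24 h of ciclopirox, and 220.0, 187 and 172 at 8 h and 372 and 361 at 24 h of crizotinib. Both 24 h crizotinib arrays were well above all others, the 8 h crizotinib arrays came next, and the lowest were those of 8 h of ciclopirox. The change was 1.27 ± 0.15 (adjusted p = 0.000178), or 2.41-fold, at 24 h of crizotinib and 0.34 ± 0.14 (adjusted p = 0.146) at 8 h. With ciclopirox it was -0.37 ± 0.14 (adjusted p = 0.107) at 8 h and 0.10 ± 0.15 (adjusted p = 0.724) at 24 h.

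MGST1, a microsomal glutathione transferase that also reduces lipid peroxides, read 1661 and 1966 in the control arrays, 2417, 2309.7 and 2215 at 8 h and 1918 and 2341 at 24 h of ciclopirox, and 2713, 2672 and 2554 at 8 h and 2625 and 2268 at 24 h of crizotinib. All crizotinib arrays lay above both controls, as did all 8 h ciclopirox arrays. MGST1 rose by 0.55 ± 0.11 (adjusted p = 0.0171) and 0.43 ± 0.12 (adjusted p = 0.0232) at 8 h and 24 h of crizotinib, and at 8 h of ciclopirox the difference was 0.36 ± 0.11 (adjusted p = 0.07). UGDH, which makes the sugar donor for glucuronidation, read 378 and 332 in control and 243 and 232 at 24 h of crizotinib, and fell by 0.58 ± 0.18 (adjusted p = 0.0291), with neither array reaching the lower control. GSTP1, a cytosolic glutathione transferase, ranged from 10001 to 12906 and EPHX1, an epoxide hydrolase, from 60.6 to 116, with no call against control for either. The MGST1 call did not pass at 8 h of crizotinib without control replicate 1 (0.43) or crizotinib 8 h replicate 2 (0.54), nor at 24 h of crizotinib without control replicate 1 (0.31) or crizotinib 24 h replicate 1 (0.33). The UGDH call did not pass at 24 h of crizotinib whichever array was left out (-0.67 to -0.49). With median-scaled scanner signals the call did not pass for MGST1 at 24 h of crizotinib (0.17).

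Among the enzymes that remove peroxides and superoxide, GPX4, the selenoenzyme that reduces lipid peroxides in membranes, had an intensity of 4089 and 3936 in the control arrays, 3222, 3581 and 3586 at 8 h and 4593 and 3961 at 24 h of ciclopirox, and 3813, 4005 and 4266 at 8 h and 5311 and 5557 at 24 h of crizotinib. The 24 h crizotinib arrays were the highest and did not overlap with any other group. GPX4 rose by 0.44 ± 0.10 (adjusted p = 0.00935) at 24 h of crizotinib and at 24 h of ciclopirox it was not called, at 0.09 ± 0.10 (adjusted p = 0.635). The second GPX4 probe rose by 0.43 ± 0.10 (adjusted p = 0.0114) at 24 h of crizotinib. The GPX4 call did not pass at 24 h of crizotinib without control replicate 2 (0.41) or crizotinib 24 h replicate 2 (0.40). Scanner signals scaled to a common median gave no call for GPX4 at 24 h of crizotinib (0.17).

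GPX1, the abundant cytosolic glutathione peroxidase, read 7719 and 8457 in the control arrays, 6364, 7529 and 6702 at 8 h and 9078 and 7683 at 24 h of ciclopirox, and 6065, 5996 and 6265 at 8 h and 9916 and 9535 at 24 h of crizotinib. It was lowest at 8 h of crizotinib and highest at 24 h of the same drug. GPX1 fell by 0.40 ± 0.10 (adjusted p = 0.0348) at 8 h of crizotinib, and at 24 h the difference from control was 0.27 ± 0.11 (adjusted p = 0.0938). Its second probe lay between 26.8 and 57.6, near background, and was not called. SOD2, the mitochondrial superoxide dismutase, read 572 and 539.6 in the control arrays, 689.8, 724 and 714 at 8 h and 538 and 649 at 24 h of ciclopirox, and 742, 743 and 766 at 8 h and 496 and 569 at 24 h of crizotinib. All 8 h arrays of both drugs lay above the controls, and the 24 h groups overlapped with them. SOD2 rose by 0.35 ± 0.10 (adjusted p = 0.0448) at 8 h of ciclopirox and by 0.43 ± 0.10 (adjusted p = 0.0252) at 8 h of crizotinib. The GPX1 call did not pass at 8 h of crizotinib whichever array was left out (-0.47 to -0.34). The SOD2 call did not pass at 8 h of ciclopirox whichever array was left out (0.31 to 0.39), nor at 8 h of crizotinib without control replicate 1 (0.48), control replicate 2 (0.39), crizotinib 8 h replicate 1 (0.44) or crizotinib 8 h replicate 2 (0.44). In the median-scaled scanner signals no call was made for SOD2 at 8 h of ciclopirox (0.16) and SOD2 at 8 h of crizotinib (0.20).

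SOD1, the cytosolic superoxide dismutase, and CAT, catalase, were not called against control. A second CAT probe gave lower values than control in all 4 comparisons, -0.68 ± 0.18 (adjusted p = 0.0478) at 8 h of ciclopirox, which limma called in a fit over all probes, and -0.62 ± 0.18 (adjusted p = 0.0651) at 8 h of crizotinib, which it did not. The CAT probe used differed from control by -0.17 ± 0.12 (adjusted p = 0.39) and -0.05 ± 0.12 (adjusted p = 0.81), so the 2 probes disagreed.

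**Figure D3:**
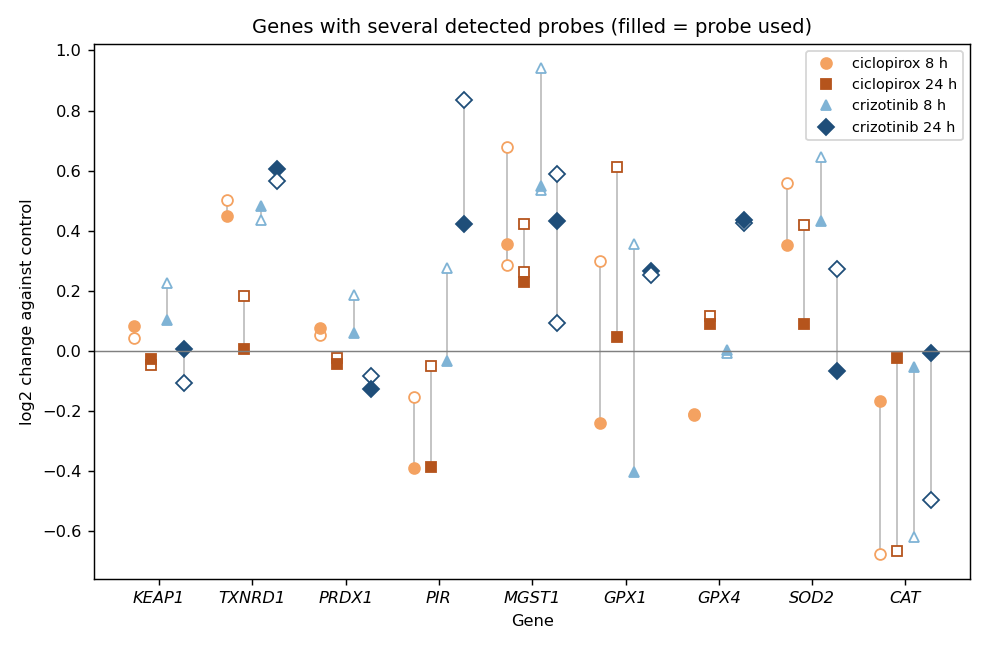
Log2 change against control (vertical axis) at 8 h and 24 h of ciclopirox and crizotinib (colours and symbols) for the 9 genes with several detected probes (horizontal axis), with filled symbols for the probe used and open ones for the others. The TXNRD1 probes lie close together, while the CAT probes are apart, with the open symbols between -0.50 and -0.68.

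Some of the 9 genes with several detected probes differed in call between probes beyond those given above. For MGST1 one further probe was called at 8 h of ciclopirox, 0.68 ± 0.14 (adjusted p = 0.0184), and at both times of crizotinib, 0.94 ± 0.14 (adjusted p = 0.00575) at 8 h and 0.59 ± 0.15 (adjusted p = 0.0167) at 24 h. The other further MGST1 probe was called in none of the comparisons with control, at 0.54 ± 0.18 (adjusted p = 0.0881) for 8 h of crizotinib. The second SOD2 probe read 0.65 ± 0.15 (adjusted p = 0.0358) at 8 h of crizotinib and 0.56 ± 0.15 (adjusted p = 0.0518) at 8 h of ciclopirox. The second probes of KEAP1 and PRDX1 were not called against control either.

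Set directly against each other at matched times, crizotinib gave higher values than ciclopirox for every gene called at 8 h and for all but SRXN1 at 24 h. The concentrations were matched only by the inhibition they caused at 72 h. At 8 h 5 of the 30 genes were called, all higher with crizotinib, against 10.0% of all genes, 5.15% higher and 4.87% lower. At 24 h 12 were called, 11 higher and 1 lower, against 24.1%, 12.3% higher and 11.8% lower. The median difference was 0.10 over the 30 genes and -0.0032 over all genes at 8 h, and 0.17 over the 30 genes and 0.00048 over all genes at 24 h. With median-scaled scanner signals the calls at 24 h were 6 higher and 3 lower, and the median of all genes was -0.14.

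HMOX1 was higher with crizotinib by 0.74 ± 0.10 (adjusted p = 0.0018) on the log2 scale at 8 h and by 1.31 ± 0.12 (adjusted p = 6.17e-05) at 24 h, or 2.48-fold. AKR1C3, ABCC2 and PIR were also called at both times: AKR1C3 by 0.62 ± 0.10 (adjusted p = 0.00323) and 1.11 ± 0.12 (adjusted p = 0.000117), ABCC2 by 0.71 ± 0.12 (adjusted p = 0.00662) and 1.17 ± 0.15 (adjusted p = 0.000416), and PIR by 0.36 ± 0.08 (adjusted p = 0.0157) and 0.81 ± 0.09 (adjusted p = 0.000181). For these 4 genes every crizotinib array lay above every ciclopirox array of the same time. They were called on these same arrays, so the separation is no further evidence. AKR1C2 was called at 8 h, at 0.38 ± 0.10 (adjusted p = 0.0357), and not at 24 h, at -0.29 ± 0.12 (adjusted p = 0.116). The AKR1C2 call did not pass at 8 h between the drugs without ciclopirox 8 h replicate 2 (0.29), ciclopirox 8 h replicate 3 (0.42), crizotinib 8 h replicate 1 (0.35) or crizotinib 8 h replicate 3 (0.33). The PIR call did not pass at 8 h between the drugs without ciclopirox 8 h replicate 2 (0.31). On median-scaled scanner signals no call was made for AKR1C2 at 8 h between the drugs (0.28) and PIR at 8 h between the drugs (0.34).

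At 24 h the other calls were NQO1 at 0.59 ± 0.08 (adjusted p = 0.000616), TXNRD1 at 0.60 ± 0.10 (adjusted p = 0.0019), GCLC at 0.54 ± 0.11 (adjusted p = 0.00459) and GCLM at 0.49 ± 0.13 (adjusted p = 0.0225). PGD at 0.47 ± 0.14 (adjusted p = 0.0298), TKT at 0.43 ± 0.11 (adjusted p = 0.0144) and GPX4 at 0.35 ± 0.10 (adjusted p = 0.0325) were higher with crizotinib too. SRXN1 at -0.35 ± 0.11 (adjusted p = 0.0352) was lower with crizotinib. In each of these genes the arrays of the 2 drugs did not overlap, which adds nothing to calls made on the same arrays. The GCLM call did not pass at 24 h between the drugs without ciclopirox 24 h replicate 2 (0.36), crizotinib 24 h replicate 1 (0.55) or crizotinib 24 h replicate 2 (0.43). The GPX4 call did not pass at 24 h between the drugs without ciclopirox 24 h replicate 2 (0.24), crizotinib 24 h replicate 1 (0.38) or crizotinib 24 h replicate 2 (0.32). The PGD call did not pass at 24 h between the drugs without ciclopirox 24 h replicate 1 (0.50), ciclopirox 24 h replicate 2 (0.44) or crizotinib 24 h replicate 2 (0.35). The SRXN1 call did not pass at 24 h between the drugs without ciclopirox 24 h replicate 2 (-0.24), crizotinib 24 h replicate 1 (-0.41) or crizotinib 24 h replicate 2 (-0.30). The TKT call did not pass at 24 h between the drugs without ciclopirox 24 h replicate 2 (0.37) or crizotinib 24 h replicate 2 (0.35). With median-scaled scanner signals the call did not pass for GCLC at 24 h between the drugs (0.31), GCLM at 24 h between the drugs (0.30), GPX4 at 24 h between the drugs (0.20), PGD at 24 h between the drugs (0.27) and TKT at 24 h between the drugs (0.32).

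Some genes rose against control under both drugs at the same time and were not called between the drugs. At 8 h TXNRD1 differed between the drugs by 0.03 ± 0.08 (adjusted p = 0.849), with a 95% interval from -0.15 to 0.21. SOD2 differed by 0.08 ± 0.09 (adjusted p = 0.616) at 8 h, with an interval from -0.11 to 0.28, and GSS by 0.0011 ± 0.09 (adjusted p = 0.995) at 24 h, from -0.20 to 0.20.

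**Figure D4:**
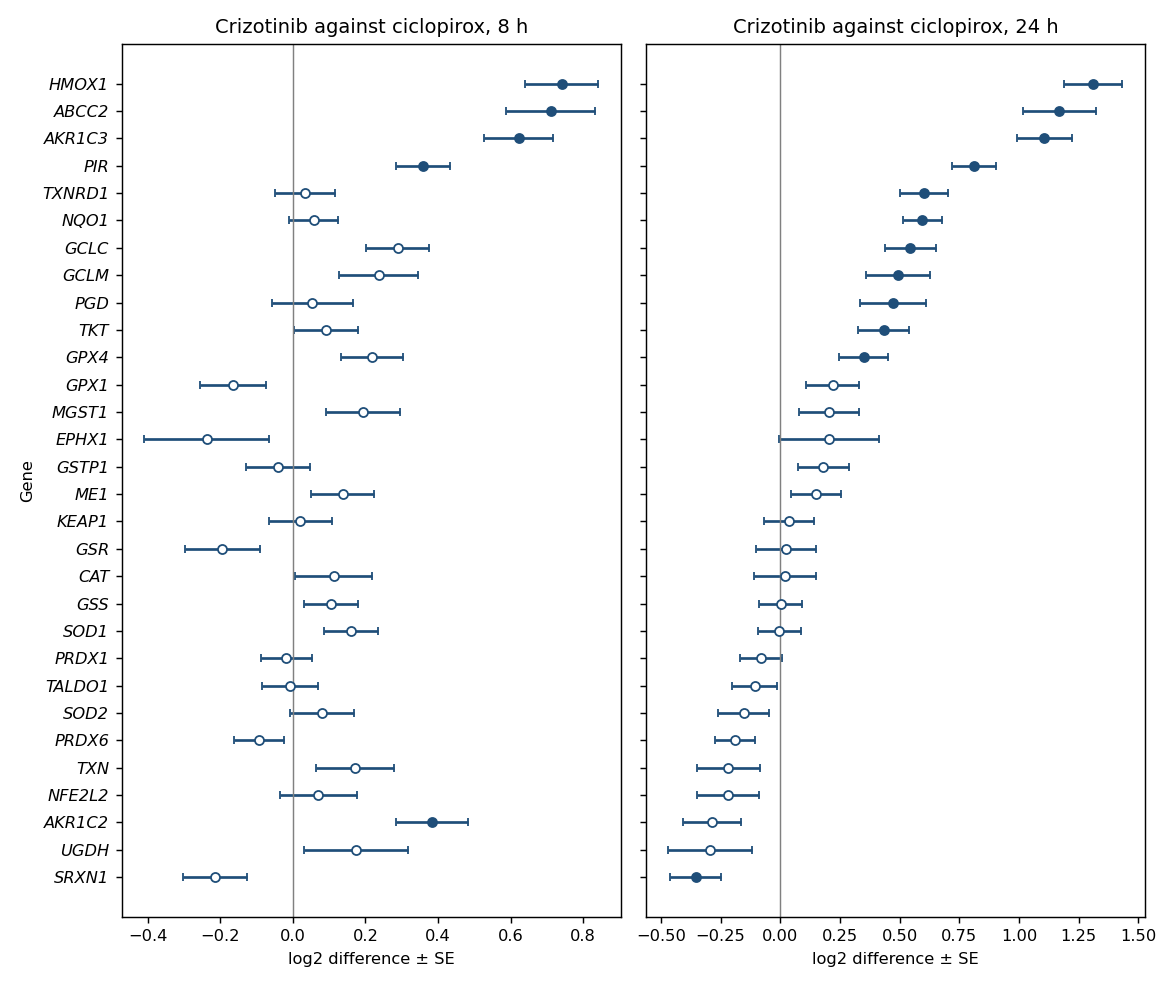
Log2 difference of crizotinib from ciclopirox ± SE (horizontal axis, with its own range in each panel) for the 30 measured genes at 8 h and at 24 h (panels). Filled symbols mark the genes called at that time and open symbols the others. HMOX1 is at 0.74 at 8 h and 1.31 at 24 h, and among the called genes SRXN1 alone lies below 0.

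The 2 times of each drug were also compared. From 8 h to 24 h of ciclopirox 10 genes were called, 5 higher and 5 lower, against 21.5% of all genes, 12.6% higher and 8.94% lower. From 8 h to 24 h of crizotinib 14 were called, 10 higher and 4 lower, against 38.6%, 21.2% higher and 17.4% lower. GCLM and SRXN1 fell with time under both drugs. GCLM fell by 1.01 ± 0.12 (adjusted p = 0.000593) with ciclopirox and 0.76 ± 0.12 (adjusted p = 0.000854) with crizotinib, and SRXN1 by 0.45 ± 0.10 (adjusted p = 0.0101) and 0.59 ± 0.10 (adjusted p = 0.00102). AKR1C3, ABCC2, GSS and GPX4 rose with time under both drugs. AKR1C3 rose by 0.39 ± 0.11 (adjusted p = 0.0261) and 0.87 ± 0.11 (adjusted p = 0.00014), and ABCC2 by 0.47 ± 0.14 (adjusted p = 0.0336) and 0.93 ± 0.14 (adjusted p = 0.000491), with ciclopirox and crizotinib in turn. GSS rose by 0.44 ± 0.08 (adjusted p = 0.00465) and 0.34 ± 0.08 (adjusted p = 0.00858), and GPX4 by 0.30 ± 0.09 (adjusted p = 0.0448) and 0.43 ± 0.09 (adjusted p = 0.00476). The ABCC2 call did not pass from 8 h to 24 h of ciclopirox without ciclopirox 8 h replicate 2 (0.36), ciclopirox 8 h replicate 3 (0.52), ciclopirox 24 h replicate 1 (0.49) or ciclopirox 24 h replicate 2 (0.46). The AKR1C3 call did not pass from 8 h to 24 h of ciclopirox without ciclopirox 8 h replicate 2 (0.33), ciclopirox 8 h replicate 3 (0.40) or ciclopirox 24 h replicate 1 (0.27). The GPX4 call did not pass from 8 h to 24 h of ciclopirox without ciclopirox 8 h replicate 1 (0.25), ciclopirox 8 h replicate 2 (0.33), ciclopirox 8 h replicate 3 (0.33) or ciclopirox 24 h replicate 1 (0.20). The GSS call did not pass from 8 h to 24 h of crizotinib without crizotinib 24 h replicate 2 (0.29). The SRXN1 call did not pass from 8 h to 24 h of ciclopirox without ciclopirox 24 h replicate 1 (-0.33). Scanner signals scaled to a common median gave no call for GPX4 from 8 h to 24 h of ciclopirox (0.29), GPX4 from 8 h to 24 h of crizotinib (0.29) and GSS from 8 h to 24 h of crizotinib (0.26).

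TXNRD1 fell from 8 h to 24 h of ciclopirox, by 0.44 ± 0.09 (adjusted p = 0.00788), AKR1C2 rose, by 0.70 ± 0.11 (adjusted p = 0.00198), and GCLC and GSR fell, by 0.37 ± 0.10 (adjusted p = 0.0214) and 0.37 ± 0.12 (adjusted p = 0.0448). With crizotinib GPX1 rose by 0.67 ± 0.10 (adjusted p = 0.000564), PIR by 0.46 ± 0.08 (adjusted p = 0.00188) and HMOX1 by 0.39 ± 0.11 (adjusted p = 0.0183). SOD2 fell by 0.50 ± 0.10 (adjusted p = 0.00271) and TXN by 0.39 ± 0.12 (adjusted p = 0.025). PGD rose by 0.48 ± 0.13 (adjusted p = 0.0122) and TKT by 0.43 ± 0.10 (adjusted p = 0.00547). Scaled to a common median, the scanner signals gave crizotinib calls of 7 higher and 6 lower and ciclopirox calls of 5 and 3. The GCLC call did not pass from 8 h to 24 h of ciclopirox without ciclopirox 8 h replicate 1 (-0.32), ciclopirox 8 h replicate 3 (-0.37), ciclopirox 24 h replicate 1 (-0.40) or ciclopirox 24 h replicate 2 (-0.35). The GSR call did not pass from 8 h to 24 h of ciclopirox whichever array was left out (-0.45 to -0.28). The HMOX1 call did not pass from 8 h to 24 h of crizotinib without crizotinib 8 h replicate 1 (0.33) or crizotinib 24 h replicate 1 (0.34). The PGD call did not pass from 8 h to 24 h of crizotinib without crizotinib 24 h replicate 2 (0.36). The TKT call did not pass from 8 h to 24 h of crizotinib without crizotinib 24 h replicate 2 (0.36). The TXN call did not pass from 8 h to 24 h of crizotinib without crizotinib 8 h replicate 2 (-0.35) or crizotinib 24 h replicate 2 (-0.29). In the median-scaled scanner signals no call was made for GCLC from 8 h to 24 h of ciclopirox (-0.18), GSR from 8 h to 24 h of ciclopirox (-0.20), PGD from 8 h to 24 h of crizotinib (0.36) and TKT from 8 h to 24 h of crizotinib (0.32).

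Whether the time course itself differed between the drugs was tested as an interaction in the same fit. Here 5 of the 30 genes were called, TXNRD1, NQO1, HMOX1 and PIR with a more positive and AKR1C2 with a more negative change under crizotinib, against 11.3% of all genes, 5.36% higher and 5.98% lower. Their values are given with the results that call for a closer look.

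Other genes of the pathway were read from the same fit. Of 86 listed genes 57 were measured, namely 12 regulators and partners of NRF2, 16 further target genes and 29 further glutathione and thioredoxin enzymes. At 8 h of ciclopirox 12 of the 57 were called, 7 higher and 5 lower, and at 24 h 9, 5 higher and 4 lower. At 8 h of crizotinib 5 were called, all higher, and at 24 h 24, 17 higher and 7 lower. The median log2 change was -0.05 and 0.02 at 8 h and 24 h of ciclopirox and 0.01 and 0.08 at 8 h and 24 h of crizotinib. All these shares are to be read against the 11.1%, 10.6%, 9.80% and 31.0% of all genes called.

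SQSTM1, which encodes the autophagy adaptor p62 that binds KEAP1, had the largest measured change of these at 24 h of crizotinib. SQSTM1 intensity was 12689 and 13229 in the control arrays, 10625, 10769.8 and 10227 at 8 h and 12412 and 10513 at 24 h of ciclopirox, and 18169, 17644 and 17647 at 8 h and 30209 and 28629.7 at 24 h of crizotinib. All crizotinib arrays lay above all others, and those of 24 h were the highest. It rose by 0.46 ± 0.09 (adjusted p = 0.0122) at 8 h and 1.18 ± 0.10 (adjusted p = 1.91e-05) at 24 h of crizotinib. NMRAL2P, a pseudogene that NRF2 induces, was above background at 24 h of crizotinib and not in control, and was at least 1.95-fold higher (adjusted p = 0.00154). CHAC2, a glutathione-degrading cyclotransferase, fell by 0.87 ± 0.22 (adjusted p = 0.0127) and NFE2, a relative of NRF2, rose by 0.85 ± 0.23 (adjusted p = 0.018) there. At 8 h of crizotinib RIT1, a small GTPase, rose by 0.78 ± 0.10 (adjusted p = 0.00271), GGCT, which breaks down gamma-glutamyl peptides, by 0.59 ± 0.12 (adjusted p = 0.0145), and GLRX3, a glutaredoxin of iron-sulfur metabolism, by 0.52 ± 0.11 (adjusted p = 0.0193). Calls did not pass for CHAC2 at 24 h of crizotinib without control replicate 2 or crizotinib 24 h replicate 1 (-0.75 to -0.67), NFE2 at 24 h of crizotinib whichever array was left out (0.83 to 0.86) and SQSTM1 at 8 h of crizotinib without control replicate 1 or control replicate 2 (0.43 to 0.49). The same held for GGCT at 8 h of crizotinib without control replicate 1 or crizotinib 8 h replicate 2 (0.49 to 0.53) and GLRX3 at 8 h of crizotinib without control replicate 1, control replicate 2, crizotinib 8 h replicate 1, crizotinib 8 h replicate 2 (0.47 to 0.57).

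With ciclopirox the carbonyl reductases CBR3 and CBR1 fell at 24 h, by 0.79 ± 0.11 (adjusted p = 0.00251) and 0.53 ± 0.12 (adjusted p = 0.025), and NFE2L1, a relative of NRF2, rose by 0.48 ± 0.10 (adjusted p = 0.0141). CHAC1, which degrades glutathione in amino acid and unfolded protein stress, was above background on both 24 h ciclopirox arrays (53.5 and 64.0) and on neither control (15.7 and 20.1), and was at least 1.45-fold higher (adjusted p = 0.000292). At 8 h of ciclopirox NFE2 was called lower (adjusted p = 0.0303), at 26.5, 43.5 and 37.7 against 62.0 and 63.5 in control, and since 1 of the 3 treated arrays was above background no size is given. There MSRB2, a mitochondrial methionine sulfoxide reductase, fell by 0.54 ± 0.11 (adjusted p = 0.0161), and PALB2, a DNA repair protein that binds KEAP1, rose by 0.52 ± 0.14 (adjusted p = 0.0372). CHAC1 was called at 8 h as well, but it was not above background in either group, so no fold is given. SLC7A11, the cystine importer, was called in none of these comparisons, with -0.30 ± 0.10 (adjusted p = 0.0794) and 0.35 ± 0.11 (adjusted p = 0.0642) at 8 h and 24 h of ciclopirox and -0.07 ± 0.10 (adjusted p = 0.672) and 0.03 ± 0.11 (adjusted p = 0.862) at 8 h and 24 h of crizotinib. FTH1 was not analysed here. Calls did not pass for CBR1 at 24 h of ciclopirox whichever array was left out (-0.56 to -0.50) and NFE2L1 at 24 h of ciclopirox without control replicate 1, control replicate 2, ciclopirox 24 h replicate 2 (0.36 to 0.51). The same held for NFE2 at 8 h of ciclopirox without control replicate 1, control replicate 2, ciclopirox 8 h replicate 1 or ciclopirox 8 h replicate 3, for MSRB2 at 8 h of ciclopirox without control replicate 2 (-0.38) and PALB2 at 8 h of ciclopirox without control replicate 1, ciclopirox 8 h replicate 1, ciclopirox 8 h replicate 2, ciclopirox 8 h replicate 3 (0.26 to 0.58).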

How the data were processed

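A375 RNA was read on 12 bead arrays of 1 chip. The authors deposited a scanner table of 47231 probes whose columns hold, per the file headers, bead signal intensity beside detection p-values (28.8% of its signals were below 0), and a normalized table of 38220 probes, also linear intensity (12.0 to 38205.3, column medians 28.3 to 29.6). GenomeStudio is named in the submitters' processing notes. No normalization method is given in the sources used here, and changes in total RNA are hidden by it. Each normalized column followed 1 scanner column (r from 0.928 to 0.980, next best at most 0.841), which was the column of its own description for 2 of 12 arrays. The table was expected on a log2 scale; log2 of its deposited intensity was taken.

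Of its probes 27002 had 1 gene symbol, 4 several and 11214 none. Detection p under 0.01 on at least 2 arrays kept 16563 probes, and the probe with the highest mean stood for each of 10330 genes. Groups came from sample titles. Differences were tested with limma 3.58.1 in R 4.3.3 (lmFit and eBayes, 7 residual degrees of freedom, two-sided, Benjamini-Hochberg), an adjusted p under 0.05 being a call. The fit was tested on simulated data. Every listed gene is accounted for. Of the other pathway genes, up to 4 called with the largest change in each comparison are named, with SLC7A11 and FTH1. Genes and lists were chosen with earlier results of these data known. For a gene with only 1 group above background, the fold is a bound against the lowest signal above background on each array. A planned comparison of AKR1C proteins was not made, because no sequences were at hand. Alternatives were scanner signals in place of the normalized table (named by the descriptions, or matched to it and median scaled), the filter, probe summary, offset, samples fitted, variance prior, the replicate block and each array left out. Precision is limited by the 2 or 3 arrays per group.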

Additional observations from a re-analysis of the deposited data

Results flagged for a closer look

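For 5 of the 30 genes the time course differed by drug, 4 more upward and 1 more downward under crizotinib, where 11.3% of all genes were called in the same limma test of the difference itself. TXNRD1 fell between the times under ciclopirox and was not called between them under crizotinib, a difference of 0.57 ± 0.13 (adjusted p = 0.0198). NQO1 differed by 0.54 ± 0.11 (adjusted p = 0.0104), having risen between the times under crizotinib by 0.41 ± 0.08 (adjusted p = 0.00171) and differed by -0.12 ± 0.08 (adjusted p = 0.272) under ciclopirox. HMOX1 differed by 0.57 ± 0.16 (adjusted p = 0.0446) and PIR by 0.45 ± 0.12 (adjusted p = 0.0357), both in the same direction. AKR1C2 differed by -0.67 ± 0.16 (adjusted p = 0.0221), having risen between the times under ciclopirox by 0.70 ± 0.11 (adjusted p = 0.00198) and differed by 0.04 ± 0.11 (adjusted p = 0.827) under crizotinib. The call did not pass for TXNRD1 without ciclopirox 24 h replicate 2 (0.56) or crizotinib 24 h replicate 1 (0.52). The call did not pass for NQO1 without crizotinib 24 h replicate 1 (0.47). The call did not pass for HMOX1 without ciclopirox 8 h replicate 1 (0.51), ciclopirox 8 h replicate 2 (0.56), ciclopirox 24 h replicate 2 (0.43), crizotinib 8 h replicate 1 (0.51), crizotinib 8 h replicate 2 (0.61), crizotinib 8 h replicate 3 (0.59), crizotinib 24 h replicate 1 (0.51) or crizotinib 24 h replicate 2 (0.63). The call did not pass for PIR without ciclopirox 8 h replicate 1 (0.43), ciclopirox 8 h replicate 3 (0.42), ciclopirox 24 h replicate 1 (0.43), ciclopirox 24 h replicate 2 (0.47), crizotinib 8 h replicate 1 (0.45), crizotinib 8 h replicate 2 (0.45), crizotinib 8 h replicate 3 (0.46) or crizotinib 24 h replicate 2 (0.37). The call did not pass for AKR1C2 without ciclopirox 24 h replicate 1 (-0.67), ciclopirox 24 h replicate 2 (-0.67) or crizotinib 24 h replicate 1 (-0.60). With median-scaled scanner signals the difference did not pass for TXNRD1 (0.37), NQO1 (0.38) and PIR (0.26), and the median of all genes was -0.13. These groups hold 2 or 3 arrays, too few for a test for single arrays that stand apart.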

How the results depend on the processing

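The alternatives on scanner signals replaced the table together with the names or the normalization, and the others changed 1 choice. Under the descriptions' names the counts were 1 for 8 h of ciclopirox, 0 for 24 h of ciclopirox, 0 for 8 h of crizotinib, 0 for 24 h of crizotinib, 0 for ciclopirox over time, 0 for crizotinib over time, 0 for the drugs at 24 h and 0 for the difference in change over time. For the drugs at 8 h the count stayed close to the main one, but with other genes. Among them limma called SRXN1 (adjusted p = 0.0108), GSS (adjusted p = 0.0323) and GPX4 (adjusted p = 0.0323). With median-scaled scanner signals the counts were 3 for the drugs at 8 h and 2 for the difference in change over time. With no detection filter the counts were 2 for 8 h of ciclopirox, 1 for 24 h of ciclopirox, 3 for 8 h of crizotinib, 5 for ciclopirox over time, 3 for the drugs at 8 h and 0 for the difference in change over time. Fitted on the groups compared alone the counts were 3 for 8 h of ciclopirox, 1 for 24 h of ciclopirox, 2 for 8 h of crizotinib, 5 for ciclopirox over time and 7 for the drugs at 24 h. With the replicate block the counts were 3 for the difference in change over time. Over all kept probes the counts were 3 for the difference in change over time. With limma-trend the counts were 10 for 8 h of ciclopirox and 9 for the difference in change over time. Where limma called 0 genes, an unadjusted p under 0.05 was met under the descriptions' names by 5 for 24 h of ciclopirox, 7 for 8 h of crizotinib, 6 for 24 h of crizotinib, 7 for ciclopirox over time, 1 for crizotinib over time, 2 for the drugs at 24 h and 3 for the difference in change over time, and with no filter by 8. Leaving out 1 array gave counts from 2 to 5 for 8 h of ciclopirox, 1 to 3 for 24 h of ciclopirox, 1 to 5 for 8 h of crizotinib, 8 to 10 for 24 h of crizotinib, 4 to 8 for ciclopirox over time, 10 to 14 for crizotinib over time, 3 to 5 for the drugs at 8 h, 7 to 12 for the drugs at 24 h and 1 to 5 for the difference in change over time. Values that reversed, all under the descriptions' names: for 8 h of ciclopirox SRXN1 -0.29, AKR1C3 0.32, SOD2 -0.084 and PIR 0.13. For 24 h of crizotinib SRXN1 0.48, TKT -0.018, AKR1C3 -0.88, ABCC2 -0.51, GPX4 -0.17 and PIR -0.44. For ciclopirox over time GCLC 0.014, GCLM 0.17, SRXN1 0.52, AKR1C3 -0.62, ABCC2 -0.56, GSR 0.24, GSS -0.19 and GPX4 -0.38. For crizotinib over time NQO1 -0.037, HMOX1 -0.44, SRXN1 0.20, PGD -0.019, AKR1C3 -0.52, ABCC2 -0.60, GSS -0.015, GPX4 -0.080 and PIR -0.30. For the drugs at 8 h HMOX1 -0.11, SRXN1 0.58, AKR1C2 -0.17, AKR1C3 -0.68, ABCC2 -0.67, GSS -0.38, GPX4 -0.41 and PIR -0.27. Here SRXN1, GSS and GPX4 were not among the 79 calls and passed only under these names. For the drugs at 24 h HMOX1 -0.18, GCLC -0.092, SRXN1 0.25, TKT -0.068, AKR1C3 -0.59, ABCC2 -0.71, GPX4 -0.11 and PIR -0.20. For the difference in change over time HMOX1 -0.069. The cause of these changes was not tested. Of the 79 calls, 74 remained over all kept probes, 79 with an offset of 16, 77 with limma-trend, 67 with the replicate block, 52 with median-scaled scanner signals, 52 with only the groups compared and 45 with no filter, and 33 passed without any 1 array. No shared effect of replicate number was seen: deviations from group means in the 21 same-numbered pairs correlated from -0.097 to 0.080. In groups of 2 arrays the deviations mirror each other, so these pairs are not all separate. Such correlations cannot show whether samples were paired when grown. Genes near the background threshold, such as CHAC1 and NMRAL2P, have bounds or no size.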
